A study of Rattus norvegicus with 10 samples.

Results

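The genes described here are those of the vacuolar H+-ATPase and of the intercalated cell, taken as the protein-coding entries of the expression table whose name begins with Atp6v0 or Atp6v1, together with Atp6ap1, Slc4a1, Slc4a9, Foxi1, Rhbg, Rhcg, Aqp6, Hmx2, Oxgr1 and Tfcp2l1. There were 32 such genes among 32545 entries, of which 22293 were protein-coding. They comprised 13 subunits of the V1 domain, 9 subunits of the V0 domain, 1 accessory protein and 9 intercalated cell genes. The rule matches names and uses no expression value, but the set was chosen with earlier results of these data known. The samples were kidneys of PCK rats, a spontaneous model of autosomal recessive polycystic kidney disease that carries a mutation in Pkhd1, and RNA was taken from snap-frozen renal cortex and sequenced after selection for poly-A tails. There were 5 male and 5 female rats, every animal carried the same disease allele, and no group without the mutation was analysed here. The labels give an age of 12 to 14 weeks and the methods of the study give 10 to 12 weeks. The animals were littermates of 2 litters, and which litter each rat came from was not used here. The comparison asks how the kidneys of male and female PCK rats differ.

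The vacuolar H+-ATPase is a rotary pump that spends ATP to move protons across a membrane. Its V1 domain lies in the cytosol and hydrolyses ATP, while its V0 domain lies in the membrane and carries the protons. All cells use it to acidify lysosomes and endosomes, and intercalated cells of the connecting tubule and collecting duct also place it in the plasma membrane, where it acidifies the urine or returns acid to the blood. Several subunits have a paralog that is enriched in the kidney and a few other acid-secreting tissues: B1 (Atp6v1b1), C2 (Atp6v1c2), G3 (Atp6v1g3), a4 (Atp6v0a4) and d2 (Atp6v0d2). Inherited loss of B1 or a4 causes distal renal tubular acidosis.

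Levels are in FPKM as deposited, in which fragment counts are divided by gene length and by a scaling factor of the library. Levels of different genes can thus be set beside each other. Over genes with reads in every library, the median ratio to the geometric mean level was 1.008 in each of the 10 libraries. The values were therefore already scaled by more than depth. The libraries held between 13912569 and 20285911 reads assigned to genes. Mitochondrial genes took 14.3% to 19.1% of reads in 9 libraries and 26.8% in female 2, and values without female 2 are also given for Rhcg, Foxi1, Atp6v0d2, Atp6v1g3, Atp6ap1 and several genes outside the members. A log2 fold change is female over male on the log2(FPKM + 0.1) scale and is tested with limma, with Benjamini-Hochberg adjustment over the 17631 genes whose mean level was at least 0.1 FPKM. An exact permutation test, two-sided and unadjusted, compares the mean FPKM of the sexes, and with 5 rats against 5 the smallest p it can give is 0.00794.

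Of the 32 genes, 31 passed the filter on low values and 2 passed the limma test, both higher in females: Rhcg, an ammonia transporter of intercalated and neighbouring cells, and Atp6v0d2, the kidney-enriched d subunit of the pump. This is 6.45% of the 31, beside 2.40% of all genes tested, of which 1.26% were higher and 1.14% lower in females. None of the 31 was lower, and none also had a log2 fold change of 1 or more, a pair of thresholds that 1.32% of all genes passed. At an unadjusted limma p of 0.05 or less, 15 of the 31 (48.4%) were higher in females, beside 7.67% of all genes, and 0 were lower, beside 8.07%. The FPKM ranges of the sexes did not overlap for 5 genes (16.1%), with every female above every male, beside 2.50% of all genes, and no gene had every female below every male, beside 2.60%. Mean log2 levels were higher in females for 28 of the 31 (90.3%), against 48.8% of all genes tested and 5295 of the 9334 genes that averaged 5 FPKM or more (56.7%). The median log2 fold change was 0.24 over the 31 genes, against -0.01 over all genes and 0.03 over genes of at least 5 FPKM. In whole tissue, fewer cells of a type and less RNA per cell cannot be told apart.

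**Figure D1:**
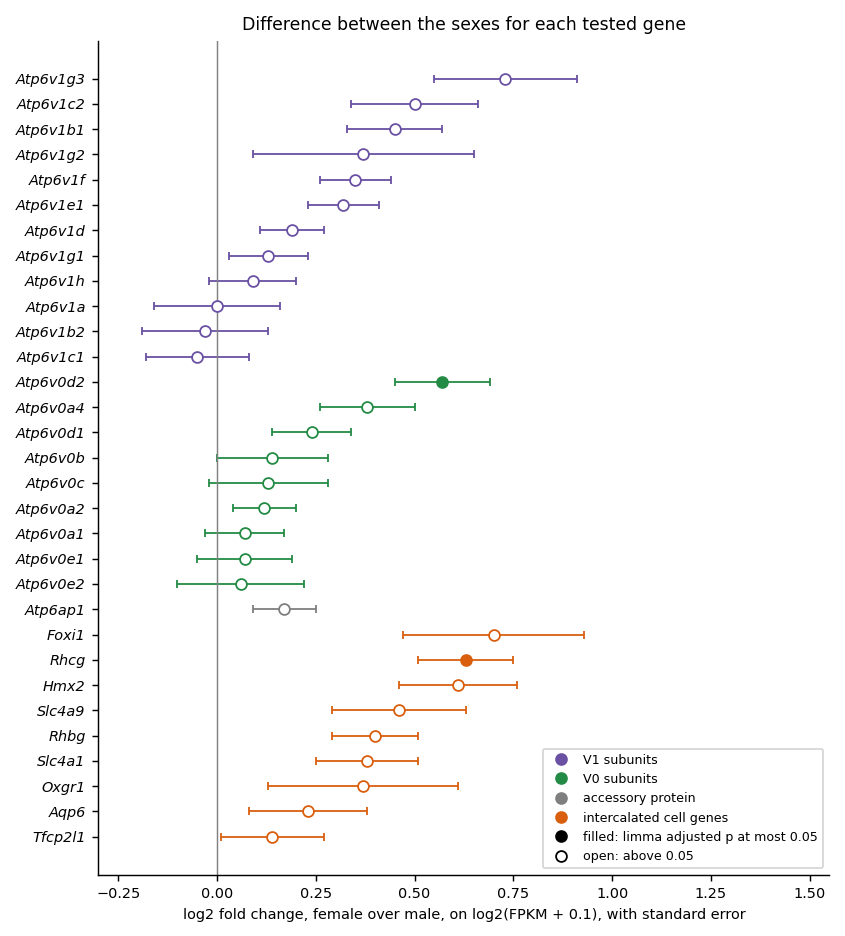
Log2 fold change, female over male, for each of the 31 tested genes, with the standard error from limma as bars. Only Rhcg and Atp6v0d2 are filled (adjusted p of 0.05 or less), and 28 of the 31 points lie right of 0.

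The intercalated cell gene with the highest level and the smallest adjusted p was Rhcg (chr1:141325856-141349881, minus strand, Rnor_6.0), which carries ammonia across the apical and basolateral membranes of acid-secreting cells. Rhcg stood at 70.3, 54.9, 57.0, 55.2 and 59.8 FPKM in males 1 to 5 and at 71.9, 92.4, 103, 113 and 84.4 FPKM in females 1 to 5. Male 1 and female 1 stood closest, and the ranges did not overlap. The mean was 59.4 ± 6.37 FPKM for males and 93.0 ± 16 FPKM for females (SD, n = 5 each), 1.56-fold higher, with a log2 fold change of 0.63 (SE 0.12) and an adjusted p of 0.0221 by limma (exact permutation p = 0.00794). The call was lost when any of 4 libraries was left out, with an adjusted p of 0.0568 without female 3, 0.0652 without male 2, 0.0631 without male 3 and 0.0592 without male 4, and without female 2 it was 0.0367.

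Rhbg (chr2:187610092-187623207, minus strand), the basolateral ammonia transporter, averaged 26.9 ± 2.71 FPKM in male and 35.7 ± 5.12 FPKM in female rats (SD, n = 5 each). Its libraries ran from 24.6 to 31.3 FPKM in male and from 29.4 to 40.9 FPKM in female rats, with 4 of 5 females above every male. The log2 fold change was 0.40 (SE 0.11), which did not pass after adjustment (limma adjusted p = 0.0922, exact permutation p = 0.0159).

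The anion exchangers mark different intercalated cells: AE1 (Slc4a1) lies in the basolateral membrane of type A cells, which secrete acid, and AE4 (Slc4a9) in that of type B cells, which secrete bicarbonate. Slc4a1 (chr10:90296141-90312386, minus strand) averaged 28.5 ± 3.83 FPKM in male and 37.2 ± 6.22 FPKM in female rats (SD, n = 5 each), a log2 fold change of 0.38 (SE 0.13). Slc4a9 (chr18:29352749-29365595, plus strand) averaged 23.7 ± 4.71 FPKM in male and 32.9 ± 7.75 FPKM in female rats, a log2 fold change of 0.46 (SE 0.17). For each gene 3 of 5 females stood above every male, the adjusted p was above 0.05 (0.189 for Slc4a1 and 0.224 for Slc4a9, limma), and the exact permutation p was 0.0476. That exact p was above 0.05 for either gene when any of females 3, 4 and 5 or males 2 to 5 was left out, reaching 0.0952 for Slc4a1 and 0.103 for Slc4a9. AE4 made up 45.3% ± 3.44 of the summed AE1 and AE4 level in males and 46.7% ± 4.40 in females (SD, n = 5 each), and the library values overlapped, from 41.5% to 49.5% and from 42.9% to 53.8%.

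Foxi1 (chr10:19160582-19164505, minus strand), the forkhead factor that intercalated cells need to form, stood at 20.3, 12.1, 14.6, 13.4 and 12.1 FPKM in males 1 to 5 and at 17.4, 42.0, 22.5, 20.9 and 19.3 FPKM in females 1 to 5. Female 2 was far above the rest, and female 1 and female 5 were below male 1. The mean was 14.5 ± 3.40 FPKM in male and 24.4 ± 9.99 FPKM in female rats (SD, n = 5 each), a log2 fold change of 0.70 (SE 0.23, limma adjusted p = 0.157, exact permutation p = 0.0238). Without female 2 the log2 fold change was 0.49 (adjusted p = 0.118), and leaving out any of males 2 to 5 gave an exact permutation p of 0.0714.

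Hmx2 (chr1:203515609-203523358, plus strand), a homeobox factor found in intercalated cells, averaged 16.4 ± 2.81 FPKM in male and 25.1 ± 4.54 FPKM in female rats (SD, n = 5 each). Its log2 fold change was 0.61 (SE 0.15, limma adjusted p = 0.0666, exact permutation p = 0.0159), with 4 of 5 females above every male. Tfcp2l1, a CP2-family factor needed for the diversity of collecting duct cells, averaged 46.1 ± 8.27 FPKM in male and 50.7 ± 6.09 FPKM in female rats, with no female above the highest male (adjusted p = 0.667). Of the 3 transcription factors, then, none passed the test after adjustment.

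Aqp6, a vesicle channel of type A cells, averaged 42.5 ± 9.46 FPKM in male and 49.1 ± 6.54 FPKM in female rats (limma adjusted p = 0.515). Oxgr1, the α-ketoglutarate receptor of type B cells, was the lowest of the 9 at 5.89 ± 1.59 FPKM in male and 7.81 ± 2.57 FPKM in female rats (adjusted p = 0.489). The ranges of both genes overlapped widely between the sexes. Over all 9 intercalated cell genes, 1 passed the test, beside 2.40% of all genes. At an unadjusted limma p of 0.05 or less 6 were higher in females, beside 7.67% of all genes. All 9 means were higher in females, beside 48.8% of all genes, and the median log2 fold change was 0.40.

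**Figure D2:**
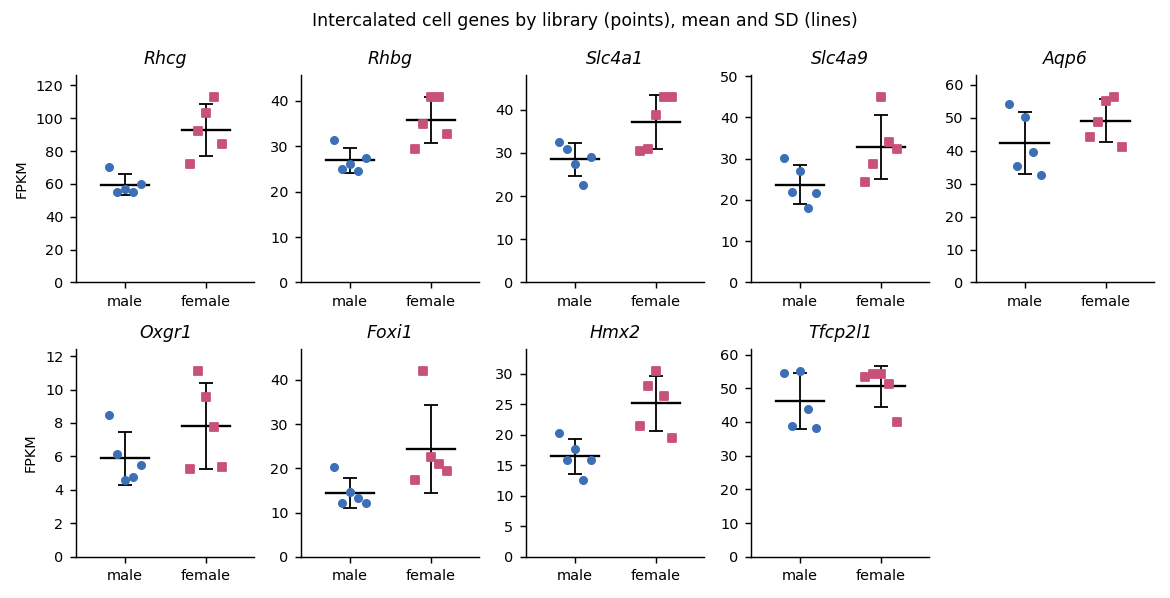
FPKM of the 9 intercalated cell genes in each library, males as circles and females as squares, with mean and SD as black lines and the vertical axis from 0. Rhcg is the only one of the 9 whose male and female points do not overlap, and female 2 stands apart for Foxi1 at 42.0 FPKM.

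Among the kidney-enriched subunits, d2 (Atp6v0d2, chr5:33843519-33892462, minus strand), which couples the turning rotor to the ring in the membrane, stood at 34.6, 29.4, 30.7, 29.3 and 36.7 FPKM in males 1 to 5 and at 39.0, 61.3, 49.0, 49.9 and 42.0 FPKM in females 1 to 5. Every female was above every male, with female 2 the highest. The mean was 32.1 ± 3.31 FPKM in male and 48.3 ± 8.65 FPKM in female rats (SD, n = 5 each), with a log2 fold change of 0.57 (SE 0.12, limma adjusted p = 0.0351, exact permutation p = 0.00794). The call was lost when any of 7 libraries was left out: the adjusted p was 0.0761 without female 3, 0.0806 without female 4, 0.0521 without female 5, 0.0582 without male 1, 0.0937 without male 2, 0.0937 without male 3 and 0.0857 without male 4. It was 0.0358 without female 2, at a log2 fold change of 0.48, and 0.0734 when FPKM were rescaled to non-mitochondrial reads.

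G3 (Atp6v1g3, chr13:55274199-55288651, plus strand), a subunit of the peripheral stalk, had a log2 fold change of 0.73 (SE 0.18). It stood at 58.3, 62.7, 47.3, 45.8 and 66.4 FPKM in males 1 to 5 and at 75.5, 142, 95.9, 85.3 and 74.8 FPKM in females 1 to 5. Again every female was above every male, and female 2 was the highest of the 10. The means of 56.1 ± 9.19 and 94.6 ± 27.7 FPKM (SD, n = 5 each) gave a limma adjusted p of 0.0666 and an exact permutation p of 0.00794. Without female 2 the log2 fold change was 0.57 and the adjusted p was 0.0470. That was the only call of Atp6v1g3 in the 10 fits that left out a library, with a limma adjusted p of up to 0.151. In the 11 other settings it was called in 0.

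B1 (Atp6v1b1, chr4:115416580-115437206, plus strand), which helps to form the ATP-hydrolysing head, stood at 56.0, 46.5, 45.9, 42.5 and 48.4 FPKM in males 1 to 5 and at 50.8, 71.5, 73.4, 73.6 and 59.2 FPKM in females 1 to 5. Only female 1 fell within the male range. The means were 47.9 ± 5.02 and 65.7 ± 10.2 FPKM (SD, n = 5 each), a log2 fold change of 0.45 (SE 0.12, limma adjusted p = 0.0873, exact permutation p = 0.0159). Without female 1 the limma adjusted p was 0.0262, the only call in the 10 fits that left out a library, where it ran up to 0.18. In the 11 other settings it was called in 0, with an adjusted p of up to 0.231.

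C2 (Atp6v1c2, chr6:42585934-42630983, minus strand), which ties the head to the stalk, averaged 16.4 ± 3.11 FPKM in male and 23.2 ± 4.34 FPKM in female rats (SD, n = 5 each), a log2 fold change of 0.50 (SE 0.16, limma adjusted p = 0.160, exact permutation p = 0.0317). Its exact p was above 0.05, up to 0.0635, when any of females 3 to 5 or males 3 to 5 was left out. For a4 (Atp6v0a4, chr4:65736585-65818521, minus strand), which forms the proton path beside the ring, the means were 134 ± 19.3 FPKM in male and 173 ± 19.1 FPKM in female rats, a log2 fold change of 0.38 (SE 0.12, limma adjusted p = 0.132, exact permutation p = 0.0159). The span of Atp6v0a4 holds all of Tmem213 on the other strand (5861 bases, mean 123.5 FPKM), and whether reads were counted by strand is not given in the sources used here, so reads of the pair may not be fully told apart. All 5 kidney-enriched subunits were higher in females at an unadjusted limma p of 0.05 or less, beside 7.67% of all genes. Their median log2 fold change was 0.50.

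**Figure D3:**
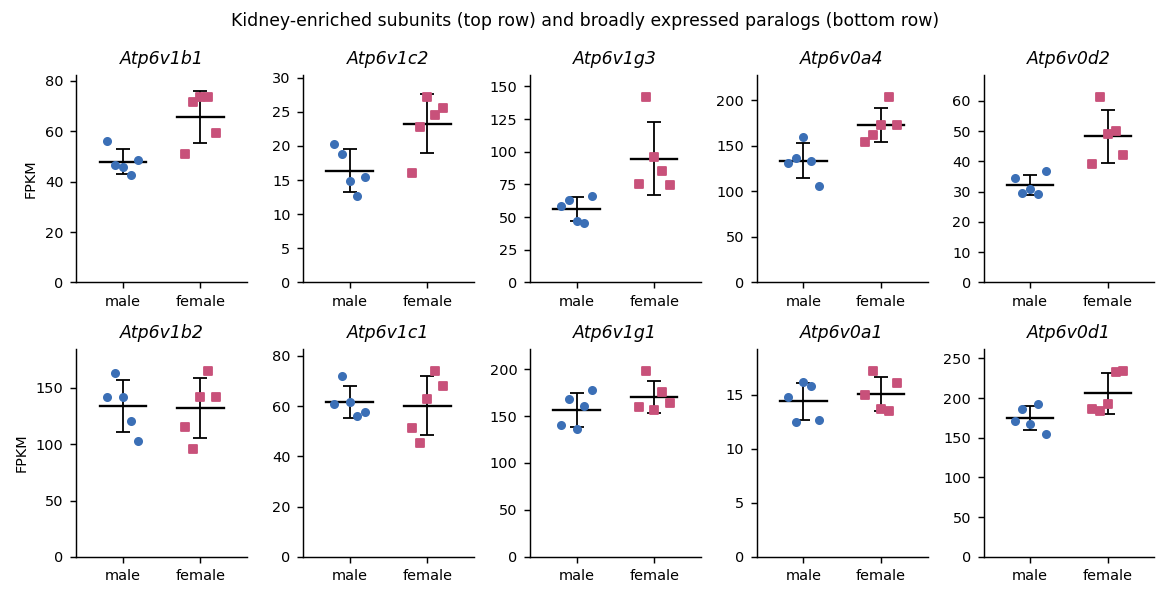
FPKM by library for the 5 kidney-enriched subunits (top row) and a broadly expressed paralog of each (bottom row), with mean and SD as black lines and the vertical axes from 0. Male and female points are separate for Atp6v1g3 and Atp6v0d2, and the points of all 5 paralogs in the bottom row overlap between the sexes.

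Promoters are shown for Rhcg, which passed the test, for Atp6v1g3 and Atp6v1b1, kidney-enriched subunits that did not pass after adjustment, and for Atp6v0d1, a broadly expressed subunit, as a contrast. The promoter set used here (RefSeq, build GRCr8) holds the 250 bases before to 50 bases after the gene start for 25 of the 32 genes. Atp6v0d2 is not among them. The 25 were searched on both strands for the forkhead core TGTTTAC, the sequence that factors of the Foxi1 family recognise, and for the CLEAR core TCACGTGA, the element of lysosomal genes. No match of one overlapped a match of the other. Capitals mark a match and the rest is in lower case, 5′ to 3′ on the gene's strand.
Rhcg (chr1:142965113-142965412, minus strand): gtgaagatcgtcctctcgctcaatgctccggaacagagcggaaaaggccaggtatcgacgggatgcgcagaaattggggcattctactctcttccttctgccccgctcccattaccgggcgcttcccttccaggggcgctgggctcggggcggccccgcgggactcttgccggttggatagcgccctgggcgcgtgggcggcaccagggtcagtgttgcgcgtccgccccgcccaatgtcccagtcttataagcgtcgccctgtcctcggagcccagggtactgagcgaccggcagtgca
Atp6v1g3 (chr13:52362082-52362381, plus strand): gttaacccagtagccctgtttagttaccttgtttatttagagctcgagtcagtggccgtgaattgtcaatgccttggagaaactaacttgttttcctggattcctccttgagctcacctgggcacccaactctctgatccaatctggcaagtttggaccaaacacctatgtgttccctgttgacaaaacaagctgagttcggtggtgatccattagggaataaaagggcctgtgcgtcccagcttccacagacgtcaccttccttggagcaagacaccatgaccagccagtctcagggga
Atp6v1b1 (chr4:117781194-117781493, plus strand): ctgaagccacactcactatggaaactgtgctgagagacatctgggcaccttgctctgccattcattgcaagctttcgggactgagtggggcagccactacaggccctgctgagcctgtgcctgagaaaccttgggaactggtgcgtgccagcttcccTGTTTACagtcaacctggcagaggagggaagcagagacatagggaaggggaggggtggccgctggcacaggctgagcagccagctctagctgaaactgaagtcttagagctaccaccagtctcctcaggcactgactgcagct
Atp6v0d1 (chr19:50357199-50357498, minus strand): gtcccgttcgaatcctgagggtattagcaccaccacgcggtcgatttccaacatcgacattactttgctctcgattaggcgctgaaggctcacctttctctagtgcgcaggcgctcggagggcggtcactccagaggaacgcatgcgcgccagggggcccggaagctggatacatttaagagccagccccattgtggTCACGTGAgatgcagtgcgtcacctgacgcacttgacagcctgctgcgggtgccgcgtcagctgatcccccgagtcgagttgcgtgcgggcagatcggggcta
The forkhead core stood in 1 of the 25 promoters, that of Atp6v1b1, 93 bases before the start, and in 3.76% of 27457 rat promoters. The CLEAR core stood in 2, Atp6v0d1 (53 bases before the start) and Atp6v0e1 (24 bases after it), and in 0.867% of all promoters. GC content was 65.7% for Rhcg, 49.3% for Atp6v1g3, 57.3% for Atp6v1b1 and 60.7% for Atp6v0d1, against a median of 52.3% over all promoters. A match describes these letters only.

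Of the broadly expressed V1 subunits, E1 (Atp6v1e1, chr4:153351421-153373649, minus strand), a peripheral stalk subunit, stood at 111, 130, 117, 126 and 114 FPKM in males 1 to 5 and at 143, 139, 150, 175 and 142 FPKM in females 1 to 5. F (Atp6v1f, chr4:56744561-56747656, plus strand), a rotor subunit, stood at 117, 130, 105, 117 and 124 FPKM in males and at 133, 169, 147, 160 and 146 FPKM in females. For both genes every female was above every male. The log2 fold change was 0.32 (SE 0.09) for Atp6v1e1 and 0.35 (SE 0.09) for Atp6v1f, and neither passed after adjustment (limma adjusted p = 0.0903 and 0.0777, exact permutation p = 0.00794 for each). Rescaled to non-mitochondrial reads, the adjusted p of Atp6v1e1 was 0.0485, its only call in 11 alternative settings. It was called in 0 of the 10 fits that left out a library, where the limma adjusted p ran up to 0.196.

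D (Atp6v1d), the central rotor shaft, averaged 84.7 ± 4.78 FPKM in male and 96.7 ± 9.60 FPKM in female rats (SD, n = 5 each), a log2 fold change of 0.19 (SE 0.08, limma adjusted p = 0.306, exact permutation p = 0.0397). The exact p was above 0.05, up to 0.103, without any of female 2, 4 or 5 or of male 1, 3, 4 or 5. The catalytic A subunit (Atp6v1a) averaged 98.3 and 99.3 FPKM in males and females, the B2 paralog (Atp6v1b2) 134 and 132 FPKM, and the C1 paralog (Atp6v1c1) 61.7 and 60.2 FPKM, with limma adjusted p-values of 0.999, 0.953 and 0.899. In the fit to all 10 libraries these 3 were the only tested members whose mean log2 level was not higher in females, and without female 1, without female 2 or without male 2 all 31 were higher. The lowest of the 10 libraries was a female for each of them, female 2, at 74.7, 96.0 and 45.2 FPKM. G1 (Atp6v1g1) averaged 157 and 171 FPKM and H (Atp6v1h), which regulates the pump, 47.1 and 50.3 FPKM (adjusted p = 0.616 and 0.771).

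G2 (Atp6v1g2), a paralog of neurons, was near its limit at 0.492 ± 0.137 FPKM in male and 0.691 ± 0.289 FPKM in female rats (11 to 36 reads per library, adjusted p = 0.569 by limma). Its span lies within those of RT1-CE7, RT1-CE4 and RT1-CE2 on the same strand and overlaps Nfkbil1 on the other, so its counts are uncertain. E2 (Atp6v1e2), a paralog of the testis, had 0 to 2 reads per library and a mean of 0.0429 FPKM, under the filter of 0.1 FPKM, so it was not tested. With every library under the floor of 3 reads, no difference was detectable at this depth.

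Among the broadly expressed V0 subunits, c (Atp6v0c), which builds the ring that carries protons, had the highest level of all members, 447 ± 42.1 FPKM in male and 498 ± 101 FPKM in female rats (SD, n = 5 each), and ranked 136 of all genes (limma adjusted p = 0.726). The ring subunit c″ (Atp6v0b) averaged 126 and 140 FPKM, and d1 (Atp6v0d1), the widely used partner of d2, 174 ± 15.3 and 206 ± 25.5 FPKM (adjusted p = 0.684 and 0.300). Atp6v0d1 was the only one of these with an unadjusted p of 0.05 or less, at a log2 fold change of 0.24 (SE 0.10, exact permutation p = 0.0635), and its ranges overlapped. The a1 and a2 paralogs sort the pump to other membranes: Atp6v0a1 averaged 14.4 and 15.1 FPKM, and Atp6v0a2 averaged 6.81 ± 0.450 and 7.42 ± 0.423 FPKM, a log2 fold change of 0.12 (SE 0.08, adjusted p = 0.519, exact permutation p = 0.0397). Without any of females 1, 3, 4 and 5 or males 2, 4 and 5 the exact p of Atp6v0a2 was above 0.05, up to 0.119. The small e subunits averaged 63.1 and 66.1 FPKM (Atp6v0e1) and 118 and 124 FPKM (Atp6v0e2), with adjusted p-values of 0.837 and 0.905.

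The accessory protein Atp6ap1, which assists assembly of V0, averaged 81.6 ± 1.98 FPKM in male and 92.0 ± 9.63 FPKM in female rats (SD, n = 5 each), a log2 fold change of 0.17 (SE 0.08, limma adjusted p = 0.347, exact permutation p = 0.0159). Its libraries ran from 79.6 to 84.8 FPKM in male and from 82.4 to 107 FPKM in female rats, and the exact p was above 0.05, up to 0.0714, without male 2, male 4 or male 5. Without female 2, the highest at 107 FPKM, the log2 fold change was 0.11 (limma adjusted p = 0.374). The 16 pump subunits tested outside the kidney-enriched 5 had 0 calls by limma, beside 2.40% of all genes, and a median log2 fold change of 0.12. At an unadjusted limma p of 0.05 or less 4 were higher in females (Atp6v1d, Atp6v1e1, Atp6v1f and Atp6v0d1), beside 7.67% of all genes.

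The share that the kidney-enriched paralog took of its subunit puts the paralogs on one scale within each library and is given as a description. G3 was 26.3% ± 2.65 of the summed G paralogs in males and 35.1% ± 4.56 in females (SD, n = 5 each), and its library values did not overlap, from 22.1% to 29.3% and from 31.2% to 41.7%. B1 was 26.6% ± 3.72 of B in males and 33.5% ± 5.41 in females, and C2 was 20.9% ± 2.53 of C in males and 28.0% ± 3.93 in females, both with overlapping values. The a4 paralog made up most of the summed a1, a2 and a4 level, 86.2% ± 1.18 in males and 88.4% ± 1.51 in females, with overlapping values. With the a3 paralog Tcirg1, which is not a member, in the sum, a choice made after seeing the data, it was 82.2% ± 1.84 and 85.7% ± 1.78, and the highest male (84.0%) lay just under the lowest female (84.2%). The d2 paralog was a minority of d, 15.7% ± 2.42 and 19.1% ± 3.76. The e2 share was 65.0% ± 5.83 and 64.9% ± 5.35. Female 2 had the highest share for B1, C2, G3 and d2 (42.7%, 33.5%, 41.7% and 25%), and without it the difference in the G3 share was 7.16 percentage points instead of 8.81, in B1 4.70 instead of 6.99 and in d2 1.96 instead of 3.43.

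**Figure D4:**
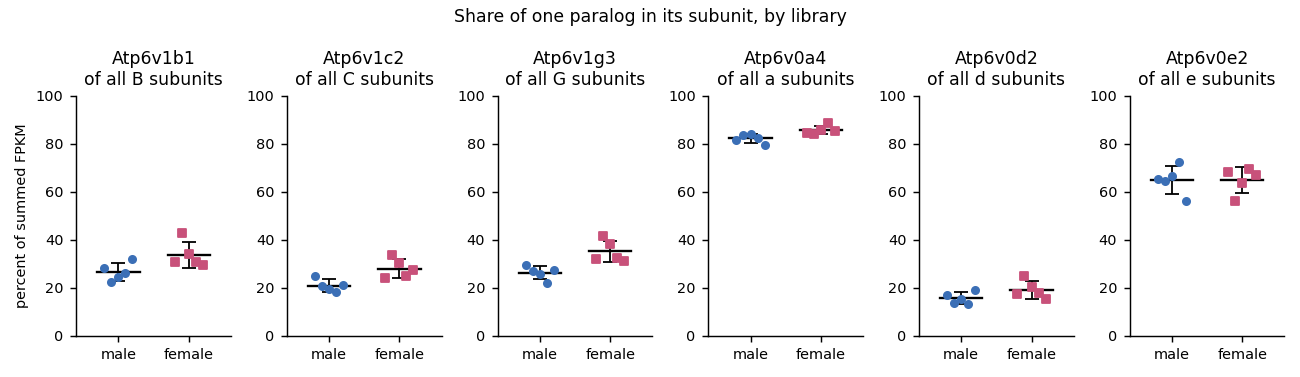
Percent of the summed FPKM of a subunit's paralogs taken by one paralog in each library, males as circles and females as squares, with mean and SD as black lines and axes from 0 to 100 percent. For a4 the sum includes the a3 paralog Tcirg1. The G3 points of the sexes do not overlap, and a4 makes up 79.4% to 88.7% of its subunit over the 10 libraries.

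The summed level of the 9 intercalated cell genes and 5 kidney-enriched subunits ran from 498.7 to 621.9 FPKM in male and from 633.0 to 831.3 FPKM in female rats. Male 1 was the highest male for 10 of these 14 genes, and female 1 the lowest female for 10 of 14. The other pump subunits summed to 1658 to 1941 FPKM in male and to 1702 to 2314 FPKM in female rats, with female 2 the lowest female for 10 of the 16 and female 4 the highest for 9. Female 2 was the lowest female for none of the 14 intercalated and kidney-enriched genes.

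Genes outside the members were taken from lists chosen by function, and their values are set beside the members without a test of the list. Of 12 other genes of the pump and its assembly, 1 passed the limma test, Tldc2, a TLDc-domain protein, at 4.30 ± 0.720 FPKM in male and 8.19 ± 1.76 FPKM in female rats (SD, n = 5 each, adjusted p = 0.0220, limma), and the median log2 fold change was 0.05. Atp6ap2, the renin receptor and a pump accessory protein, averaged 88.2 and 102 FPKM (adjusted p = 0.589), and Tcirg1, the a3 subunit of osteoclasts and macrophages, 7.37 and 6.13 FPKM (adjusted p = 0.306). Of 21 other intercalated cell genes tested, 16 means were higher in females and 5 lower, with a median log2 fold change of 0.27. At an unadjusted limma p of 0.05 or less, 10 were higher and 0 lower. After adjustment 0 were lower and 3 higher. These were Slc26a7, an anion exchanger, at 0.727 ± 0.106 and 1.76 ± 0.373 FPKM (adjusted p = 0.00496, limma), Tmem213, which lies within Atp6v0a4, at 98.8 ± 12.8 and 148 ± 10.3 FPKM (adjusted p = 0.00911), and Bsnd, the chloride channel subunit barttin, at 22.5 ± 2.01 and 32.2 ± 4.24 FPKM (adjusted p = 0.0251). Slc26a4, the exchanger pendrin of type B cells, averaged 42.0 ± 14.2 and 60.4 ± 9.18 FPKM (adjusted p = 0.232), and Hepacam2, a cell adhesion protein, 10.8 ± 2.40 and 19.3 ± 5.45 FPKM (adjusted p = 0.0666). With each library left out in turn, Slc26a7 and Tmem213 were called in all 10 fits (limma). Bsnd was called in 3, those without female 1, female 2 or male 1, with an adjusted p of up to 0.0746 in the rest. Tldc2 was called in 5, those without female 1, 2 or 4 or male 2 or 5, with an adjusted p of up to 0.0655.

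Values of markers of neighbouring cells follow, and their part in the results was not tested. Of 13 principal cell genes, 12 had higher means in females, with a median log2 fold change of 0.42. At an unadjusted limma p of 0.05 or less, 5 were higher and 1 was lower. The limma test was passed by 2, Avpr2, the vasopressin receptor (adjusted p = 0.0469), and Tspan8 (adjusted p = 0.0401). The summed level of the 13 ran from 395.2 to 595.0 FPKM in male and from 573.3 to 740.6 FPKM in female rats. The water channel gene Aqp2 averaged 79.5 ± 18.8 and 117 ± 22.7 FPKM (SD, n = 5 each, adjusted p = 0.122, limma). Of 5 connecting and distal convoluted tubule genes tested, 1 was called higher in females, Calb1, a calcium-binding protein, at 139 ± 29.5 and 281 ± 71.9 FPKM (adjusted p = 0.0226, limma). At an unadjusted limma p of 0.05 or less, 3 of the 5 were higher and 0 lower. The median of the 5 was 0.37, with sums of 228.2 to 371.5 and 346.8 to 590.5 FPKM. Of 5 thick ascending limb genes 1 was lower in females, Ptger3, a prostaglandin E receptor (34.8 and 22.9 FPKM, adjusted p = 0.0435), 1 was higher at an unadjusted p of 0.05 or less, and 3 of 5 means were higher, with a median of 0.13 and sums of 1061 to 1577 and 1102 to 1741 FPKM. Of 8 proximal tubule genes 1 was higher, Cubn, an endocytic receptor (50 and 81.0 FPKM, adjusted p = 0.0467), 2 were lower at an unadjusted p of 0.05 or less, and 4 of 8 means were lower, with a median of 0.06 and sums of 1882 to 3330 and 1672 to 3358 FPKM. Of these called genes, Calb1 kept its call in 5 of the 10 fits that left out a library (those without female 1, 2 or 5 or male 1 or 5), and Avpr2 (without female 2 or male 1), Tspan8 (without female 2 or 3), Ptger3 (without female 1 or 2) and Cubn (without female 2 or male 4) in 2 each, with limma adjusted p-values of up to 0.066 for Calb1 and 0.125 for the others in the rest. Without female 2 the log2 fold change was 0.67 instead of 0.82 for Hepacam2, 1.56 instead of 1.40 for Tspan8, -0.50 instead of -0.62 for Ptger3 and 0.30 instead of 0.20 for Atp6ap2, which was 0.11 without female 4 and 0.12 without male 4. None of 16 lysosome genes passed, with a median log2 fold change of 0.00 and 2 at an unadjusted p of 0.05 or less. None of 10 macrophage and osteoclast-like genes passed, with 3 lower and 1 higher in females at an unadjusted p of 0.05 or less, 8 of 10 means lower in females, a median of -0.48 and sums of 668.3 to 1324 FPKM in male and 440.5 to 872.0 FPKM in female rats.

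**Figure D5:**
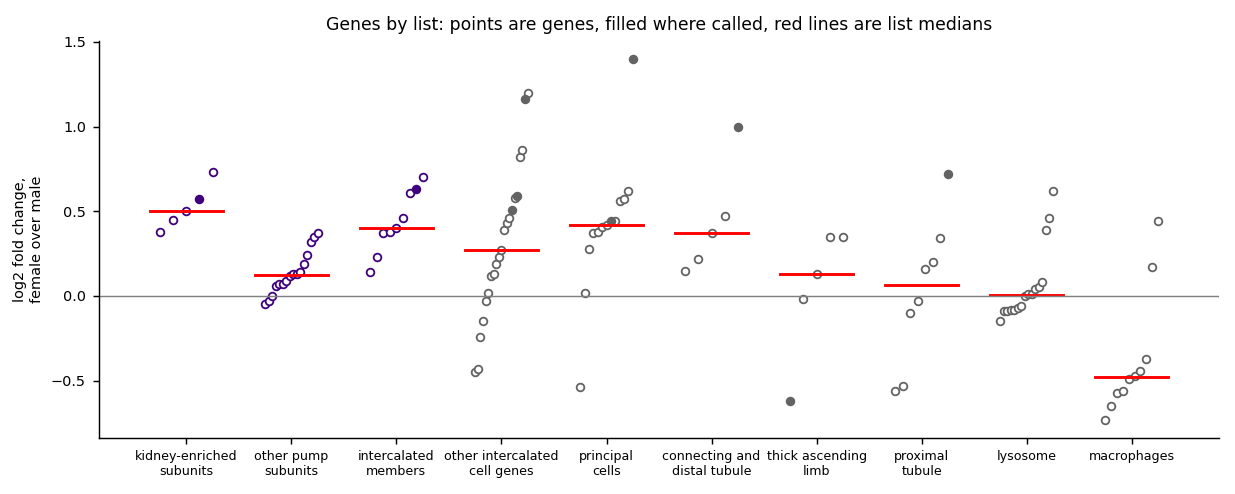
Log2 fold change, female over male, of each tested gene in 10 groups, with groups of members in purple, other lists in grey, called genes filled and the group median as a red line. The medians are 0.50 for kidney-enriched subunits, 0.12 for the other pump subunits, 0.40 for the intercalated members, 0.42 for principal cells, 0.00 for lysosome genes and -0.48 for macrophage genes.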

How the data were processed

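Poly-A RNA was sequenced from PCK kidneys, 5 of each sex. According to the submitters' processing notes, reads were trimmed with fastp and handled with HISAT2 2.0.5, StringTie 1.3.3b and featureCounts 1.5.0-p3 on Rnor_6.0. The authors deposited FPKM for 32545 genes, which were used as deposited. The strand setting of the counting is not given in the sources used here. FPKM steps gave whole reads for 100% of values (within 0.01 of a whole read), so depth per library was recovered, 13912569 to 20285911 reads, and the floor is 3 reads. Intervals and floors cover counting error only.

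Groups came from the labels. Log2(FPKM + 0.1) of genes averaging 0.1 FPKM or more was fitted with limma 3.58.1 (R 4.3.3, trended variance), with Benjamini-Hochberg adjustment over 17631 genes and a threshold of 0.05. Single genes also had an exact permutation test (scipy 1.17.1). The p-values measure the spread between these rats. The code was tested on simulated data. Members with an adjusted or exact p of 0.05 or less, or with separate ranges, and 6 fixed ones (Atp6v1b1, Atp6v0a4, Atp6v1g3, Atp6v1c2, Atp6v0d2 and Foxi1), have full statistics, and the others a level. Of other genes, those from the lists that passed the same rule could be named (the 4 with the smallest adjusted p where a list had over 6), with Aqp2, Slc26a4, Atp6ap2 and Tcirg1. The members and lists were chosen with earlier results of these data known. Alternatives were other pseudocounts, filters, scalings and moderation, limma-voom on recovered reads, a replicate block, leaving out each library and, added after seeing the data, a3 in the a4 share.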

Additional observations from a re-analysis of the deposited data

Results flagged for a closer look

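For each of the 31 tested genes and each sex, the highest and lowest of the 5 libraries were compared with the nearest other library, as a share of the range. Of 62 such pairs, 2 had a library apart, and chance flags about 1 in 20 groups. Foxi1 stood at 42.0 FPKM in female 2, where the next female was at 22.5 FPKM, and this gap was 0.794 of the range. Female 2 was also the library with the highest mitochondrial share, 26.8%. Tfcp2l1 stood at 40.0 FPKM in female 5, where the next female was at 51.4 FPKM, a gap of 0.803 of the range.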

How the results depend on the processing

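The 2 calls (Rhcg and Atp6v0d2) were made again with pseudocounts of 0.01 and 1 and with a filter of 1 FPKM or none. They were also made with robust moderation and with limma-voom on recovered reads. In these runs 1.69% to 2.88% of all genes were called. Median-ratio scaling could not change the calls, because every library already had the same median ratio of 1.008. The count of members called, all higher in females, was 1 (Rhcg) without the variance trend, beside 2.18% of all genes. It was 1 (Rhcg) with quantile normalization, beside 2.5% of all genes. Scaling to non-mitochondrial reads gave 2, Rhcg and Atp6v1e1, beside 2.42%. Leaving out each library in turn gave 0 to 3 calls: 0 without female 3, male 2, male 3 or male 4, 1 without female 4, female 5 or male 1, 2 without male 5, and 3 without female 1 (with Atp6v1b1) or female 2 (with Atp6v1g3), where 1.51% to 3.13% of all genes were called. The number of members with separate ranges was 5 to 9 in the same runs, with 9 without female 1 and 9 without male 1, and among all genes 5.79% to 8.69% had separate ranges in either direction, against 5.10% with all 10 libraries. The median log2 fold change of the members was 0.19 to 0.29 in these runs. With limma-voom, which scales the recovered reads by depth, it was 0.16, and the median over all genes was -0.081. Under every alternative run 25 to 31 members had higher means in females. Among the other named genes, calls were lost by Tldc2 with limma-voom (adjusted p = 0.0878), by Bsnd without the trend (0.0502) and with limma-voom (0.0598), by Tspan8 and Ptger3 without the trend (0.0690 and 0.0759) and without a filter (0.0564 and 0.0558), and, without counting the replicate block, in 4 settings each by Avpr2 (up to 0.135) and Cubn (up to 0.0787). None of the 16 members with full statistics turned its direction under any alternative run.

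The replicate numbers occur in both sexes. Deviations of same-numbered libraries had correlations of -0.0975 to 0.0708, and those of different numbers ran from -0.13 to 0.119. With 5 pairs and the litters not used here, these correlations cannot show whether the numbers pair the samples. With a replicate block 0 members were called by limma, against 231 genes (1.31%) of the 17631. The block also ended the calls of Tmem213 (0.0682), Bsnd (0.111), Avpr2 (0.155), Tspan8 (0.109), Calb1 (0.134), Ptger3 (0.105) and Cubn (0.103). Depth limits Atp6v1e2 and Atp6v1g2, with 0 to 2 and 11 to 36 reads per library, while the other members had at least 67 reads in every library.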
